A study of Mus musculus with 6 samples.

Results

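Expression of the genes for branched-chain amino acid (BCAA) catabolism was examined in cardiomyocytes (CMs) that lacked Cpt1b, the muscle form of the enzyme that admits long-chain fatty acids to mitochondria for oxidation. The 10 genes described here were Bcat2, Bckdha, Bckdhb, Dbt, Bckdk, Ppm1k, Ivd, Mccc1, Mccc2 and Hibadh. They were taken by symbol from the 16448 genes of the deposited RNA-seq table, and each symbol matched 1 gene. The table was used to ask how BCAA catabolism genes differed between adult CMs with and without Cpt1b. CtrlCre denotes αMHC-Cre pos/+; Cpt1b+/+ animals and Cpt1bcKO denotes αMHC-Cre pos/+; Cpt1b fl/fl animals, so that both groups carried the Cre transgene. All were C57BL/6 mice of 8 to 12 weeks, untreated, with 3 samples in each group. The αMHC promoter drives Cre in CMs, and the study places the inactivation of Cpt1b in these cells at embryonic stages. The share of CMs that had lost both alleles was not measured here. Non-CMs in the preparation kept the gene. CMs were obtained by enzymatic perfusion of the heart, removal of the atria and low-speed centrifugation, without sorting.

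Leucine, isoleucine and valine are broken down in mitochondria. Bcat2 transfers their amino group, and the resulting branched-chain keto acids are decarboxylated by the branched-chain keto acid dehydrogenase (BCKDH) complex, the committed step. Bckdha and Bckdhb encode the α and β subunits of its decarboxylase, and Dbt encodes the transacylase core. The kinase Bckdk phosphorylates the α subunit and switches the complex off, whereas the phosphatase Ppm1k removes the phosphate and switches it on. Ivd, Mccc1 and Mccc2 act further down the leucine branch, and Hibadh acts in the valine branch. The end products, acetyl-CoA and succinyl-CoA, enter the Krebs cycle. In the heart, the pathway is known for low expression in failure and for control by the transcription factor Klf15.

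The values were gene read counts after division by a sample-specific factor, rounded by the authors, and are called normalized counts below. Their sum without mitochondrial-encoded and rRNA genes ranged from 3146414 to 3551692 per sample. The mitochondrial rRNA gene mt-Rnr2 held 61.8 to 64.6% of the full sum in 4 samples, 72.6% in Cpt1bcKO sample 2 and 80.8% in Cpt1bcKO sample 3. The last of these stood apart from the others, and the fold changes of the genes called below, other than markers, are also given without it. Sample 1 of each group had 957 and 1080 normalized counts of the female-specific transcript Xist, against 23 to 78 in the other samples, so the sexes were balanced between the groups although the labels do not give them. The targeted gene Cpt1b had 1861, 893 and 1443 normalized counts in the CtrlCre samples and 211, 353 and 285 in the Cpt1bcKO samples (log2 fold change −2.27, adjusted p = 0.00338 from limma), and without Cpt1bcKO sample 3 its log2 fold change was −2.29 (adjusted p = 0.0112). The CM markers were abundant in every sample. Their summed level was 244799 to 302585 normalized counts in CtrlCre and 187133 to 217569 in Cpt1bcKO samples. All 7 were lower by value in Cpt1bcKO samples, 3 of them without overlap, as were 9.6% of all genes tested. Of the 7, only Pln was lower at an unadjusted p below 0.05, where 7.22% of all genes tested were lower. All 5 fibroblast markers were higher in Cpt1bcKO samples at this threshold, where 6.66% of all genes tested were higher. Fibroblast marker sums were 438 to 680 in CtrlCre and 920 to 1107 in Cpt1bcKO samples. Endothelial markers summed to 1031 to 2165 and 1843 to 2222 (1 of 5 higher, Tie1), smooth muscle and pericyte markers to 526 to 1784 and 989 to 1439, macrophage markers to 39 to 77 and 70 to 79, and atrial markers to 18 to 121 and 37 to 93 normalized counts, with no call in these last 3 lists. Tagln was listed at 0 in 2 CtrlCre samples. Erythroid markers did not exceed a sum of 20. In such bulk samples, fewer CMs and less RNA per CM cannot be told apart. The part of other cell types in the differences below was not tested.

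Promoters are shown for 3 genes: the phosphatase Ppm1k and the kinase Bckdk, which act on the same subunit in opposite directions, and Ivd, which was lower together with Ppm1k. Each window runs from 250 bases before to 50 bases after the RefSeq start site (GRCm38.p6), 5′ to 3′ on the strand of the gene. Capitals mark the letters CACCC or their reverse complement GGGTG, the core of the box bound by Krüppel-like factors such as Klf15.
Ppm1k promoter, chr6:57535438-57535737, minus strand: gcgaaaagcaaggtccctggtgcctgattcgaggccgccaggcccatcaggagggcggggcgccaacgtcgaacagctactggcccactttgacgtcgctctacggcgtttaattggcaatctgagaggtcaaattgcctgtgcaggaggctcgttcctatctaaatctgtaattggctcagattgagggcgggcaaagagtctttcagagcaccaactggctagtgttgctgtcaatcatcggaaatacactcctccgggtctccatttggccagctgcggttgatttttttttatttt
Bckdk promoter, chr7:127903823-127904122, plus strand: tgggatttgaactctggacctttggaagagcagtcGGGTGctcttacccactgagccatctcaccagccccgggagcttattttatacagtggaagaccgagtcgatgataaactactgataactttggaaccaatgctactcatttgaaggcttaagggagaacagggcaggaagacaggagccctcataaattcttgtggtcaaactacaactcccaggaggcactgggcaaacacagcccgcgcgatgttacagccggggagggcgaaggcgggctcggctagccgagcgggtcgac
Ivd promoter, chr2:118861744-118862043, plus strand: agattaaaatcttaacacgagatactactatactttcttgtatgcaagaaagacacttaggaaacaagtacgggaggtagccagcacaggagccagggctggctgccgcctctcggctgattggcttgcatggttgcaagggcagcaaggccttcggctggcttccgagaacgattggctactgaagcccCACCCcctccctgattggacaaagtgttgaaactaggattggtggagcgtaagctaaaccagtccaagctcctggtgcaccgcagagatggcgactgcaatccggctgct
The Ppm1k window held no CACCC on either strand. The deposited coordinates start Ppm1k at 57535426 on the minus strand, so this window lies wholly upstream of the gene as counted. The Bckdk window held 1 match on the opposite strand, at position −215 from the start site, and the Ivd window held 1 on the gene's strand, at position −60. RefSeq windows were matched for 9 of the 10 genes (11 windows), all but Dbt, and a CACCC on either strand was found in 7 of these 9 genes, once each in Bcat2, Bckdk, Ivd, Mccc2 and Hibadh and 2 times each in Bckdhb and Mccc1. Counted by window, this is 7 of 11 windows, and the same letters occurred in 57.5% of 32817 mouse promoter windows of this length. The oestrogen-related receptor element TNAAGGTCA was found in none of the 9 (1.28% of all windows), and neither was the direct repeat bound by PPARs, AGGTCA 2 times with 1 base between (0.0396% of all windows), both searched on both strands. A match is a match of letters only.

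Ppm1k had 2.63-fold lower expression in Cpt1bcKO CMs, Dbt and Ivd were lower by 30.3% and 25.3%, and none of the 10 genes was higher by the test. All 10 passed the filter on low values, which asked for 10 or more normalized counts in 3 or more samples. Of the 10, 3 were lower at an unadjusted p below 0.05, the threshold of the study, where 7.22% of the 11364 genes tested were lower, 6.66% higher and 13.9% called in either direction. After Benjamini-Hochberg adjustment over all genes tested, 1 of the 10 was left, Ppm1k, against a background of 0.906% lower and 1.57% in either direction. The values of 4 genes did not overlap between the groups and were lower in Cpt1bcKO, namely Ppm1k, Dbt, Ivd and Bckdhb, where 9.6% of all genes tested were lower without overlap and 18.7% did not overlap in either direction. By value alone, 6 genes were lower and 4 higher. The median log2 fold change of the 10 was −0.21, and that of all genes tested was −0.0013. The 7 CM markers had a median of −0.42, close to the values of Dbt and Ivd, and the lowest of them was Pln with −0.85, whereas Ppm1k lay lower still. The part of CM content in these differences was not tested.

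**Figure D1:**
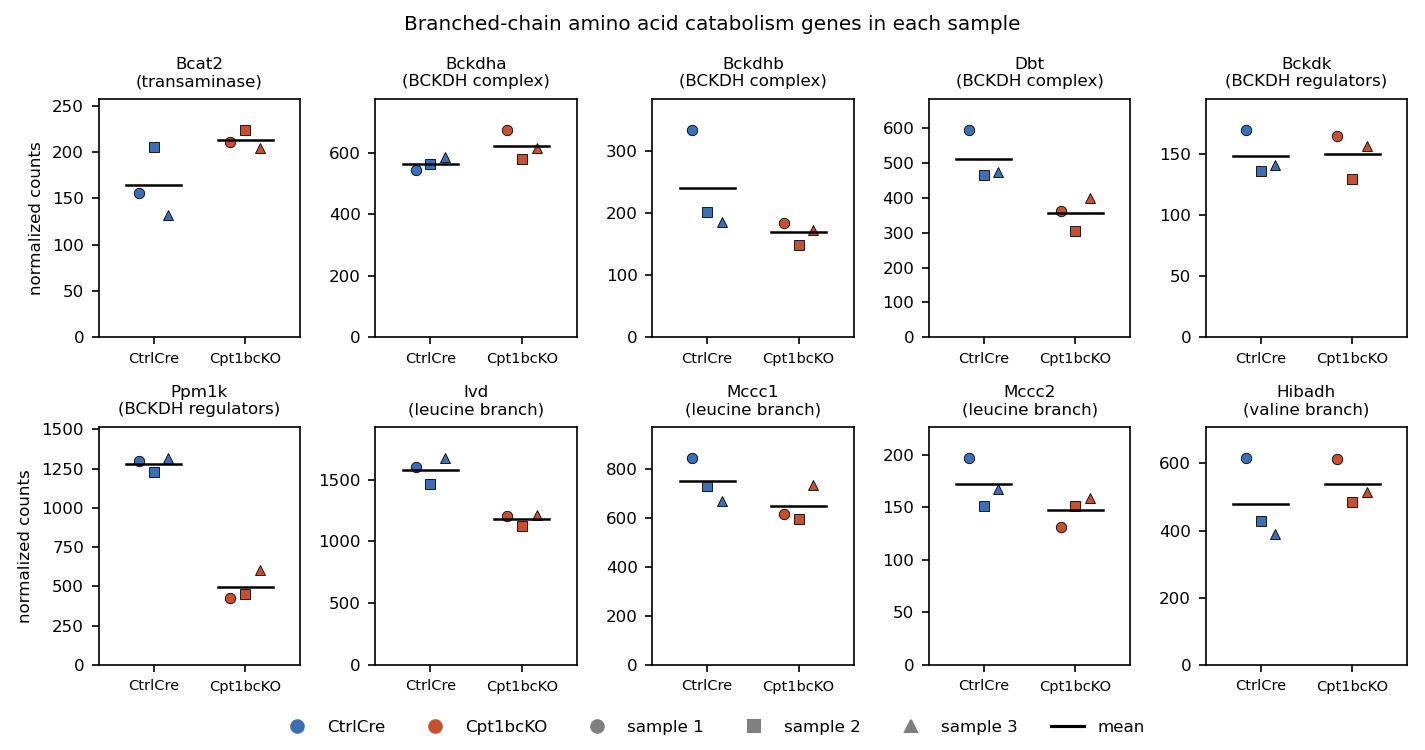
Normalized counts (vertical axes, from 0) of the 10 BCAA catabolism genes in each CtrlCre and Cpt1bcKO sample, with symbols for the sample numbers and bars at the group means. Ppm1k lies at 1226 to 1319 in the CtrlCre samples and at 425 to 604 in the Cpt1bcKO samples, whereas the values of Bckdk overlap.

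Of the BCKDH regulators, the phosphatase gene fell and the kinase gene was not called. Ppm1k (ENSMUSG00000037826, chr6:57506502-57535426, minus strand, GRCm38) had 1301, 1226 and 1319 normalized counts in the CtrlCre samples and 425, 451 and 604 in the Cpt1bcKO samples. Every CtrlCre value was above every Cpt1bcKO value, and the highest Cpt1bcKO value was that of sample 3. The means were 1282 ± 49.3 and 493 ± 96.7 (SD, n = 3 each), and the log2 fold change was −1.39 (95% interval −1.75 to −1.04, standard error 0.16). The adjusted p of limma was 0.00338, and Ppm1k ranked 14 by p among the 11364 genes. The call was kept in 6 of 6 fits that left out 1 sample, with log2 fold changes of −1.55 to −1.29 and adjusted p-values of limma of 0.00261 to 0.0330. Without Cpt1bcKO sample 3 the log2 fold change was −1.55 (adjusted p = 0.00261). Without sample 1 of both groups, the pair with high Xist, it was −1.28 (adjusted p = 0.00459). With 1 prior variance for all genes, the adjusted p of Ppm1k was 0.0532, and no gene named here then passed the adjusted threshold, Cpt1b included.

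Bckdk (ENSMUSG00000030802, chr7:127904082-127910221, plus strand) had 170, 136 and 141 normalized counts in the CtrlCre samples and 165, 130 and 157 in the Cpt1bcKO samples. The groups overlapped fully. Its log2 fold change was 0.016 with a 95% interval of −0.38 to 0.42 (adjusted p = 0.981 from limma), and its sign changed in 4 of the 6 fits that left out 1 sample. A difference of Bckdk within this interval was not detectable in these samples.

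The balance of both regulators was also compared within each sample, where the factor applied by the authors cancels. The log2 ratio of Ppm1k to Bckdk was 2.93, 3.16 and 3.22 in the CtrlCre samples and 1.36, 1.79 and 1.94 in the Cpt1bcKO samples. All Cpt1bcKO ratios were below all CtrlCre ratios, by 1.41 on average, a 2.65-fold lower ratio of phosphatase to kinase transcripts. The log2 ratio of Ppm1k to its substrate subunit Bckdha was lower by 1.53 on average, from 1.18 ± 0.0682 to −0.35 ± 0.32 (SD, n = 3). That of Bckdk to Bckdha was −1.92 ± 0.214 in CtrlCre and −2.05 ± 0.096 in Cpt1bcKO (exact two-sided permutation p = 0.6). With 3 samples against 3, the smallest p of an exact two-sided permutation test is 0.1, and both Ppm1k ratios had this value. In all, 15 ratios were compared, 9 of them did not overlap between the groups, and their p of 0.1 was 0.167 after Benjamini-Hochberg adjustment over the 15 exact permutation tests. Many of the ratios share a gene, so they are not separate results. The share without overlap among other gene pairs is not given here. Of the single genes tested, 18.7% did not overlap.

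**Figure D2:**
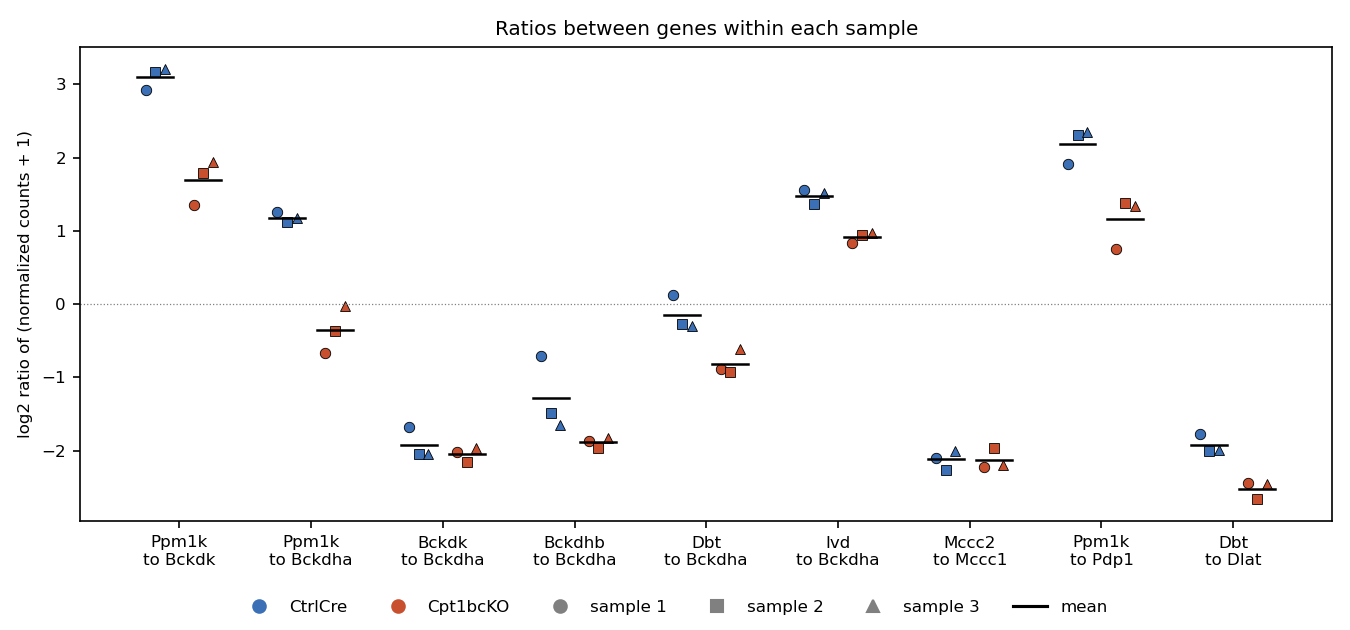
Log2 ratios between pairs of genes within each sample (vertical axis, from normalized counts + 1), with bars at the group means. The Ppm1k to Bckdk ratio lies at 2.93 to 3.22 in the CtrlCre samples and 1.36 to 1.94 in the Cpt1bcKO samples, and the Mccc2 to Mccc1 ratio overlaps.

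Of the subunit genes of the BCKDH complex, only Dbt passed the unadjusted threshold. The transacylase gene Dbt (ENSMUSG00000000340, chr3:116513070-116549981, plus strand) had 595, 465 and 475 normalized counts in the CtrlCre samples and 363, 305 and 401 in the Cpt1bcKO samples. Its groups did not overlap, and CtrlCre sample 1 had the highest value. The log2 fold change was −0.52 (95% interval −0.89 to −0.15, adjusted p = 0.186 from limma). It passed the unadjusted threshold only. That call was lost when Cpt1bcKO sample 2, the lowest, was left out (−0.41), and it was kept without Cpt1bcKO sample 3 (−0.61).

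Bckdhb (ENSMUSG00000032263, chr9:83925145-84124240, plus strand) had 333, 201 and 185 normalized counts in the CtrlCre samples and 184, 148 and 173 in the Cpt1bcKO samples. The groups were separated by a single count, and the highest value again belonged to CtrlCre sample 1. The log2 fold change was −0.46 (95% interval −0.97 to 0.045, adjusted p = 0.404 from limma). It was −0.20 without CtrlCre sample 1 and −0.62 without CtrlCre sample 3, where it passed the unadjusted threshold.

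Bckdha (ENSMUSG00000060376, chr7:25629946-25658981, minus strand) had 545, 564 and 586 normalized counts in the CtrlCre samples and 675, 581 and 615 in the Cpt1bcKO samples. Its groups overlapped, with a log2 fold change of 0.14 (95% interval −0.16 to 0.44, adjusted p = 0.693 from limma). This value was 0.082 without Cpt1bcKO sample 1 and 0.056 without sample 1 of both groups. When scaled to the summed level of nuclear genes other than rRNA, it was 0.25. Within samples, the log2 ratio of Bckdhb to Bckdha was −0.71, −1.48 and −1.66 in CtrlCre and −1.87, −1.97 and −1.82 in Cpt1bcKO. The ratio of Dbt to Bckdha was 0.13, −0.28 and −0.30 in CtrlCre and −0.89, −0.93 and −0.62 in Cpt1bcKO. Neither ratio overlapped between the groups, with mean differences of −0.60 and −0.66 and an exact permutation p of 0.1 each. The difference of Bckdhb to Bckdha was −0.32 without CtrlCre sample 1. Transcripts of the β subunit and of the core were thus lower relative to those of the α subunit in each Cpt1bcKO sample than in any CtrlCre sample.

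Bcat2 (ENSMUSG00000030826, chr7:45570153-45589711, plus strand), the mitochondrial transaminase, had 156, 206 and 132 normalized counts in the CtrlCre samples and 211, 224 and 204 in the Cpt1bcKO samples. The groups overlapped through CtrlCre sample 2, which was above Cpt1bcKO sample 3. The log2 fold change was 0.39 (95% interval −0.031 to 0.82, adjusted p = 0.397 from limma). It was 0.25 without CtrlCre sample 3, and 0.57 without CtrlCre sample 2, where it passed the unadjusted threshold. With every sample scaled to its summed level of nuclear genes other than rRNA, it was 0.50 (adjusted p = 0.254 from limma) and passed the unadjusted threshold, where 10.7% of all genes were higher. The count of higher genes among the 10 was thus 0 or 1 depending on the scaling. That scaling moved the median of all genes from −0.0013 to 0.11 and that of the 10 genes from −0.21 to −0.10. The cytosolic transaminase Bcat1 was near the lower end of detection, with 0 to 4 normalized counts in CtrlCre and 0 to 2 in Cpt1bcKO samples.

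In the leucine branch, Ivd and both subunits of methylcrotonyl-CoA carboxylase had lower means in Cpt1bcKO, and Ivd passed the unadjusted threshold. Ivd (ENSMUSG00000027332, chr2:118861954-118882909, plus strand), the isovaleryl-CoA dehydrogenase, had 1600, 1462 and 1677 normalized counts in the CtrlCre samples and 1203, 1123 and 1210 in the Cpt1bcKO samples. The groups were well apart and both were narrow. The log2 fold change was −0.42 (95% interval −0.71 to −0.13, adjusted p = 0.172 from limma). Ivd passed the unadjusted threshold only, and it did so in 6 of 6 fits that left out 1 sample. Without Cpt1bcKO sample 3 its log2 fold change was −0.44. The ratio of Ivd to Bckdha did not overlap between the groups (mean log2 difference −0.56, exact permutation p = 0.1).

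Mccc1 (ENSMUSG00000027709, chr3:35959833-36000678, minus strand), the biotin-carrying subunit, had 847, 732 and 671 normalized counts in the CtrlCre samples and 616, 595 and 736 in the Cpt1bcKO samples. Its partner Mccc2 (ENSMUSG00000021646, chr13:99948533-100015639, minus strand) had 197, 151 and 167 in the CtrlCre samples and 131, 151 and 159 in the Cpt1bcKO samples. Both overlapped between the groups. The log2 fold changes were −0.21 for Mccc1 (95% interval −0.55 to 0.13, adjusted p = 0.588 from limma) and −0.22 for Mccc2 (95% interval −0.61 to 0.17, adjusted p = 0.634). They were both −0.12 without CtrlCre sample 1, −0.083 and −0.035 without sample 1 of both groups, and −0.096 and −0.11 when scaled to the summed level of nuclear genes other than rRNA. The log2 ratio of Mccc2 to Mccc1 was −2.12 ± 0.136 in CtrlCre and −2.13 ± 0.141 in Cpt1bcKO (SD, n = 3, exact permutation p = 1, where the smallest possible is 0.1).

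Hibadh (ENSMUSG00000029776, chr6:52546228-52640389, minus strand), the hydroxyisobutyrate dehydrogenase of valine breakdown, had 617, 428 and 391 normalized counts in the CtrlCre samples and 613, 485 and 516 in the Cpt1bcKO samples. The groups overlapped because CtrlCre sample 1 had the highest of the 6 values. The log2 fold change was 0.19 (95% interval −0.23 to 0.61, adjusted p = 0.708 from limma), and it ranged from 0.059 without CtrlCre sample 3 and 0.092 without Cpt1bcKO sample 1 to 0.39 without CtrlCre sample 1, where it passed the unadjusted threshold.

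**Figure D3:**
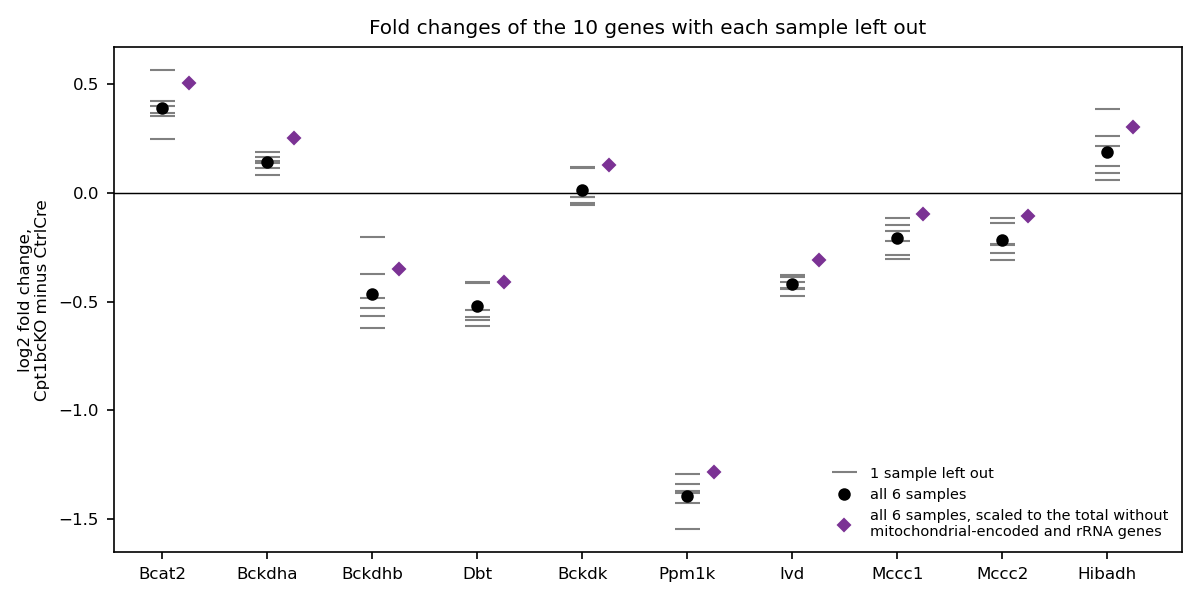
Log2 fold changes (Cpt1bcKO minus CtrlCre, vertical axis) of the 10 genes from all 6 samples (circles), with each sample left out in turn (dashes) and after scaling to the summed level of nuclear genes other than rRNA (diamonds). Ppm1k stays between −1.55 and −1.29 when a sample is left out, and Bckdk lies on both sides of 0.

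The same CtrlCre sample stood at the top of several genes. CtrlCre sample 1 had the highest of the 6 values in 6 of the 10 genes, and Cpt1bcKO sample 2 the lowest in 5. CtrlCre sample 1 also had the highest summed level of CM markers and the lowest of endothelial, fibroblast and smooth muscle and pericyte markers of the 6 samples (302585, 1031, 438 and 526 normalized counts), and their part in these values was not tested. The median over the 10 genes of the log2 difference from the CtrlCre mean was 0.19, −0.12 and −0.085 in CtrlCre samples 1, 2 and 3 and −0.30, −0.26 and −0.061 in the Cpt1bcKO samples. By this summary of the 10 genes, Cpt1bcKO sample 3 lay above CtrlCre samples 2 and 3. The median log2 fold change of the 10 was −0.12 without CtrlCre sample 1 and −0.059 without sample 1 of both groups, while Ppm1k, Dbt and Ivd kept an unadjusted p below 0.05 in both fits.

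Levels of different genes were compared as normalized counts per kb of exon (union of exons, GENCODE vM21). In the CtrlCre samples, Bckdha had the highest level with 298 ± 10.8 normalized counts per kb (SD, n = 3), followed by Ivd with 287 ± 19.8 and Ppm1k with 213 ± 8.19. Bckdha and Ivd did not differ beyond their spread. Dbt (153 ± 21.6) and Bckdhb (133 ± 45.0) came next and overlapped, then Mccc1 (68.5 ± 8.16) and Mccc2 (61.3 ± 8.33), and the lowest were Hibadh (47.0 ± 11.9), Bcat2 (42.2 ± 9.68) and Bckdk (40.3 ± 4.97), whose values overlapped. In the Cpt1bcKO samples, the levels per kb were 328 ± 25.1 for Bckdha, 214 ± 8.78 for Ivd, 106 ± 14.4 for Dbt, 93.3 ± 10.2 for Bckdhb and 81.9 ± 16.1 for Ppm1k, and the other 5 genes lay between 40.8 and 59.3. Ppm1k thus ranked behind Dbt and Bckdhb instead of ahead of both, although its values overlapped those of both. Per kb, Ppm1k transcripts outnumbered those of Bckdk 5.28 times in CtrlCre and 2.01 times in Cpt1bcKO CMs. The level of Bckdha was 2.24 times that of Bckdhb and 1.95 times that of Dbt in CtrlCre, and 3.52 and 3.09 times in Cpt1bcKO. The order depends on the length used. With the longest transcript in place of the exon union, the CtrlCre level was 431 for Ivd, 298 for Bckdha and 111 for Mccc1, and 79.1 for Bcat2, 78.7 for Hibadh and 43.8 for Bckdk. By that length, the Cpt1bcKO level of Ppm1k was 88.7, below those of Bcat2 (102) and Mccc1 (96.1).

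**Figure D4:**
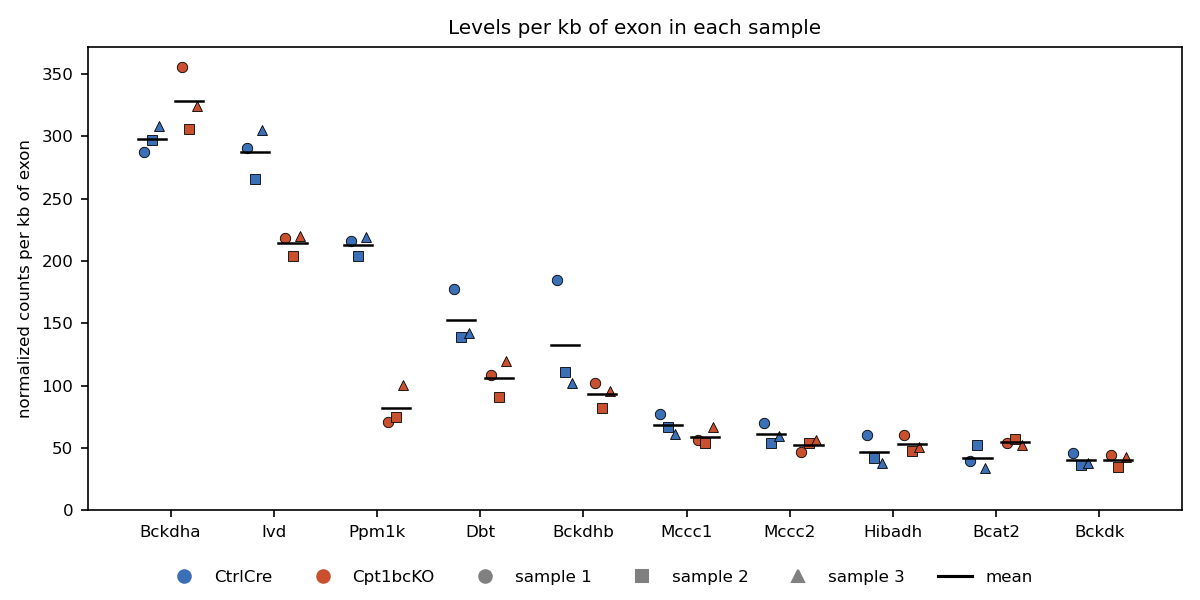
Normalized counts per kb of exon (vertical axis, from 0) of the 10 genes in each sample, ordered by the CtrlCre mean, with bars at the group means. The CtrlCre mean of Ppm1k, 213, is above those of Dbt (153) and Bckdhb (133), and its Cpt1bcKO mean, 81.9, is below theirs (106 and 93.3).

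The remaining genes of the pathway, from uptake to propionyl-CoA disposal, gave 4 calls. Of 28 listed genes, 27 were in the table and 25 passed the filter. At an unadjusted p below 0.05, 1 was higher (Slc43a2) and 3 were lower (Acadsb, Aldh6a1 and Mut), a share of 16.0% against 13.9% of all genes. By value, 9 were higher and 16 lower. Their log2 fold changes had a median of −0.11. After adjustment over all genes, Slc43a2 and Acadsb remained, where 1.57% of all genes were called in either direction and 0.906% were lower.

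Slc43a2 (ENSMUSG00000038178, chr11:75531698-75577575, plus strand), a plasma membrane carrier of branched-chain and other neutral amino acids, had 100, 135 and 99 normalized counts in the CtrlCre samples and 252, 250 and 327 in the Cpt1bcKO samples. It rose 2.48-fold without overlap (log2 fold change 1.31, standard error 0.194, adjusted p = 0.0104 from limma). The adjusted p of limma was 0.0556 without Cpt1bcKO sample 2, 0.0547 without CtrlCre sample 3 and 0.0302 without Cpt1bcKO sample 3, where the log2 fold change was 1.18. The 5 fibroblast markers were higher in the same samples, with a median log2 fold change of 1.11, and their part in the value of Slc43a2 was not tested. The other transporters tested were not called. The mitochondrial BCAA carrier Slc25a44 had 67, 55 and 53 normalized counts in CtrlCre and 73, 65 and 70 in Cpt1bcKO samples (log2 fold change 0.25, adjusted p = 0.642 from limma).

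Acadsb (ENSMUSG00000030861, chr7:131410601-131448944, plus strand) encodes the acyl-CoA dehydrogenase of the isoleucine branch, the step that Ivd performs for leucine. It had 1511, 1318 and 1327 normalized counts in the CtrlCre samples and 925, 576 and 643 in the Cpt1bcKO samples, with no overlap. Acadsb fell by 0.98 on the log2 scale (standard error 0.183, adjusted p = 0.0259 from limma). When 1 sample was left out, the adjusted call was kept in 1 of 6 fits, without Cpt1bcKO sample 1 (adjusted p = 0.00328), and the others gave 0.0833 to 0.158, with 0.0833 and a log2 fold change of −0.92 without Cpt1bcKO sample 3. The valine branch enzyme Aldh6a1, which makes propionyl-CoA from methylmalonate semialdehyde, had 1910, 1732 and 1598 normalized counts in CtrlCre and 1352, 1011 and 871 in Cpt1bcKO samples (log2 fold change −0.72, adjusted p = 0.0820 from limma). Mut, the methylmalonyl-CoA mutase that delivers succinyl-CoA, had 1054, 992 and 914 in CtrlCre and 771, 590 and 604 in Cpt1bcKO samples (log2 fold change −0.60, adjusted p = 0.0933). Neither overlapped between the groups. Without Cpt1bcKO sample 3 the log2 fold changes were −0.57 for Aldh6a1 and −0.55 for Mut, and both kept their unadjusted call. The acyl-CoA dehydrogenase of valine, Acad8, had a log2 fold change of 0.14 and was chosen here after its value was seen, to stand beside Ivd and Acadsb. The 95% interval of Acad8 was −0.34 to 0.62, and leaving out 1 sample gave values of 0.028 to 0.29. The dihydrolipoamide dehydrogenase Dld, which the BCKDH complex shares with other complexes, had 2177, 2351 and 2173 normalized counts in CtrlCre and 2101, 1957 and 1985 in Cpt1bcKO samples, without overlap but with a log2 fold change of −0.15 and an adjusted p of 0.650 from limma. Klf15 had 92, 76 and 102 in CtrlCre and 69, 56 and 89 in Cpt1bcKO samples, which overlapped (log2 fold change −0.35, adjusted p = 0.554 from limma). The log2 fold change of Klf15 was −0.19 without Cpt1bcKO sample 2 and −0.52 without Cpt1bcKO sample 3.

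**Figure D5:**
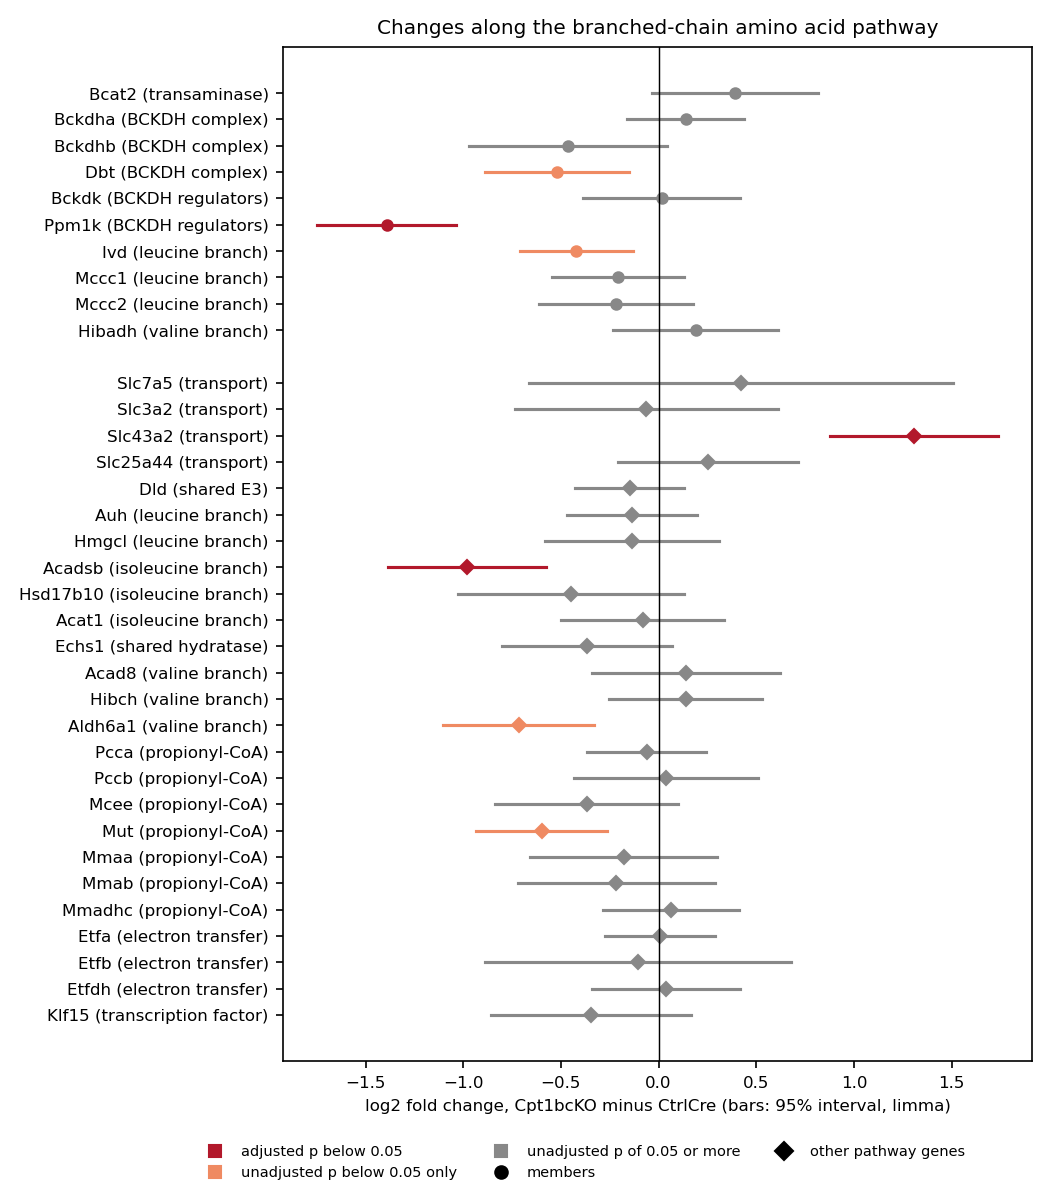
Log2 fold changes (Cpt1bcKO minus CtrlCre, horizontal axis) with 95% intervals from limma for the 10 genes (circles) and the 25 other pathway genes tested (diamonds), with the step of each gene in parentheses. Ppm1k, Slc43a2 and Acadsb pass the adjusted threshold, and Dbt, Ivd, Aldh6a1 and Mut the unadjusted threshold only.

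BCKDH belongs to a family with the pyruvate (PDH) and oxoglutarate dehydrogenase complexes, whose genes are given for comparison. Of 13 listed genes 12 were tested, and at an unadjusted p below 0.05 of limma 2 were higher and 0 lower, a share of 16.7% against 13.9% of all genes. The median over the 12 was 0.028 on the log2 scale. None passed adjustment in this fit without a replicate block. Pdhx, which anchors Dld in the PDH complex, had 866, 873 and 744 normalized counts in CtrlCre and 1176, 1067 and 1137 in Cpt1bcKO samples (log2 fold change 0.45, adjusted p = 0.162 from limma). The PDH kinase Pdk4 had 5605, 3909 and 1573 in CtrlCre and 21655, 8824 and 5458 in Cpt1bcKO samples, which overlapped (log2 fold change 1.64, adjusted p = 0.179). When each sample was left out in turn, the log2 fold change of Pdhx ranged from 0.37 to 0.49, with 0.44 without Cpt1bcKO sample 3. That of Pdk4 ranged from 1.09 without Cpt1bcKO sample 1 and 1.12 without CtrlCre sample 3 to 2.09 without Cpt1bcKO sample 3. Both genes were still called without adjustment in all these fits. The ratio of the phosphatase Ppm1k to the PDH phosphatase Pdp1 was lower by 1.03 on the log2 scale and that of Dbt to its counterpart Dlat by 0.59, both without overlap, and the ratio of Bckdha to Pdha1 was higher by 0.41, also without overlap (exact permutation p = 0.1 each). The ratio of Bckdk to Pdk4 was lower by 1.62 without overlap, whereas Bckdhb to Pdhb (difference −0.50, exact permutation p = 0.2) and Bckdk to Pdk2 (0.27, exact permutation p = 0.2) overlapped. These differences were −0.22 for Bckdhb to Pdhb without Cpt1bcKO sample 1 and 0.12 for Bckdk to Pdk2 without Cpt1bcKO sample 3.

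Reads that touched several genes had been left out of the counts by the authors, and whether counting used the strand is not given in the sources used here. Annotated genes overlap 7 of the 10. Those in the table had mean values of at most 22.0 normalized counts, such as the antisense transcript Gm4596 at Dbt with 6.0. How many reads of the 10 genes were left out cannot be read from these values. Bckdk, Ivd and Mccc2 had no overlapping gene in the annotation, and the genes antisense to Ppm1k, Bckdha and Bckdhb were not in the table.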

How the data were processed

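RNA-seq of isolated adult CMs was analysed in 3 CtrlCre and 3 Cpt1bcKO samples. Per the study's methods and the submitters' processing notes, reads were trimmed (Trimmomatic 0.36), aligned to mm10 (GRCm38.p5) with STAR 2.5.4b, counted per gene with featureCounts 1.6.0 and compared with DESeq2 1.14.1. The annotation release is not given in the sources used here. The deposited values, entered here as a score because they are neither raw counts nor a standard unit, are gene counts after division by a sample-specific factor, rounded by the authors to integers. Cpt1bcKO sample 3 has no value of 2, 7, 11, 15 or 20, so its values are not raw counts. Read counts and depths were not reconstructed here. The 6 columns of the authors' own comparison (group means, fold changes and p-values) were not used.

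Values were transformed to log2(value + 1), so fold changes of low genes are understated. Genes with 10 or more in 3 or more samples were kept. limma 3.58.1 (R 4.3.3; lmFit, eBayes with trend) was fitted to all 11364 such genes without covariates, with Benjamini-Hochberg adjustment over them. Calls used an unadjusted p below 0.05, as in the study, and an adjusted p below 0.05. The steps were tested on simulated data. Ratios were tested with exact two-sided permutation tests. The study counts these samples as mice, although the labels do not name the animals. Named genes were the 10 genes, Cpt1b, every gene of the other lists with an unadjusted p below 0.05, and Dld, Bcat1, Slc25a44 and Klf15. Beyond this rule, genes are named as partners in ratios or as markers, and Acad8 was added after its value was seen. The 10 genes and the lists were chosen with earlier results of these data known. Lists are described by counts and medians. Coordinates are those of the deposited table. Of the 10 genes, 7 had the same start and end in GENCODE vM21, which gave exon lengths. Promoters are from RefSeq. Plots were made in Python 3.11.15 (matplotlib 3.10.9). Alternatives were pseudocounts of 0.5 and 5, other filters and scalings, 1 prior variance, a replicate block, a threshold of 0.01 and leaving out samples.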

Additional observations from a re-analysis of the deposited data

How the results depend on the processing

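Ppm1k kept its direction and its unadjusted call under every alternative run, and its adjusted call under all but 1. With 1 prior variance for all genes, no adjusted call was left among these genes: 0 of the 10 against 1, and 0 of the other pathway genes in either direction against 1 each. The adjusted p-values from limma were then 0.0532 for Ppm1k and 0.0563 for Cpt1b (log2 fold change −2.27). The share of all genes called in this fit is not given here, so these counts cannot be read against a background. Scaling to the summed level of nuclear genes other than rRNA gave 1 higher gene of the 10 (Bcat2) at the unadjusted threshold against 0, and 0 lower pathway genes after adjustment against 1 (Acadsb). Without sample 1 of both groups, 6 other pathway genes were lower at the unadjusted threshold against 3, and 1 of the related complexes against 0, where 9.51% of all genes were lower. After adjustment 3 other pathway genes were lower against 1, with 1.17% of all genes. When each sample was left out in turn, the number of higher genes among the 10 was 0 to 1 and that of lower genes 2 to 4 at the unadjusted threshold, with 3.94% to 8.95% of all genes higher and 4.88% to 10.9% lower. After adjustment 1 of the 10 was lower in each fit, with 0.209% to 1.51% of all genes lower and 0.154% to 1.23% higher. Among the other pathway genes in the same fits, 0 to 1 were higher and 0 to 3 lower after adjustment, and 3 to 6 were lower at the unadjusted threshold, both with the highest count without Cpt1bcKO sample 1. In the related complexes, 0 to 1 were lower. The log2 fold change of Bckdk ranged from −0.053 to 0.12 in these fits and was below 0 in 4 (−0.053, −0.018, −0.046 and −0.021). The difference in the ratio of Hibadh to Bckdha ranged from −0.11 to 0.27 (−0.015 and −0.11 without CtrlCre samples 2 and 3), and that of Mccc2 to Mccc1 ranged from −0.091 to 0.051 and was above 0 in 4 fits (0.035, 0.025, 0.0017 and 0.051). The causes were not tested. Among the fold changes of single genes, 274 of 285 alternative values kept their direction and their side of the unadjusted threshold. Longest transcripts changed 6 of 10 levels per kb by more than 1 SD.

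Same-numbered samples deviated together in 2 of 3 pairs (Pearson's r 0.376, 0.255 and 0.0684 across genes). Differently numbered samples had r of −0.329 to 0.147, so the numbers were not taken as pairs. The first pair is the one with high Xist, and the part of sex in its r was not tested. The block fit below is thus an alternative only. With a replicate block, 3 of the 10 (Ppm1k, Dbt and Ivd, adjusted p = 0.000413, 0.0481 and 0.0393 from limma) and 3 other pathway genes (Acadsb, Aldh6a1 and Mut) were lower after adjustment, against 3.12% of all genes. In the related complexes 2 were higher after adjustment (Pdk4 and Pdhx, adjusted p = 0.000435 and 0.0449), against 2.19%. At the unadjusted threshold, 1 of the 10 was higher (Bcat2), against 9.44% of all genes, and 4 of the 10 (Bckdhb added), 6 other pathway genes and 3 genes of the related complexes were lower, against 11.3%.

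With 3 samples in each group, a difference as small as that of Bckdk could not be resolved, and ratios could not reach a p below 0.1 in the exact two-sided permutation test. Because read depths were not reconstructed, no counting error is given for low genes such as Bcat1.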
